A study of Homo sapiens with 6 samples.

Results

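The cyclin-dependent kinase (CDK) inhibitors were examined as a family of 7 genes: the CIP/KIP genes CDKN1A, CDKN1B and CDKN1C and the INK4 genes CDKN2A, CDKN2B, CDKN2C and CDKN2D. Their members were chosen by name, as the array probes whose transcript accession belongs to 1 of these genes, which gave 9 probes among the 50599 on each array. The 7 genes are among 20503 genes that could be named on the array. In A673 Ewing sarcoma cells labelled as expressing the lysyl oxidase propeptide, 1 member, CDKN1A, was higher than in cells with the empty vector, by 5.62-fold relative to the median of all tested probes. The direction of CDKN1A held under 16 alternative settings, several of which give the same change by construction. Its call was lost in 6 of them, including the test that the study's methods name. The other 5 members with tested probes did not pass the test, and CDKN2B was not well above background on any array.

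RNA was taken from 3 samples of A673/TR/empty cells and 3 samples of A673/TR/LOX-PP cells and hybridised to 6 Agilent 1-colour arrays, called here the control and the LOX-PP arrays. A673 is an established Ewing sarcoma cell line that carries the EWS/FLI1 fusion, and all 6 samples derive from A673 cells that carry the tetracycline repressor (TR) and a zeocin-selected lentiviral insert. In A673/TR/LOX-PP cells the insert holds the cDNA of the propeptide that is cleaved from lysyl oxidase (LOX), inducible by doxycycline, and in A673/TR/empty cells it holds no LOX sequence. The labels give doxycycline at 1 µM for 72 h for all 6 samples, but the study's methods name it clearly for the A673/TR/LOX-PP cells alone, so whether the control cells received it is not settled. Stable clones and pools were both made in the study, and which of them gave the RNA is not given in the sources used here. By the study's methods the 3 samples of each group are RNA of 3 separate experiments.

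CDK inhibitors are small proteins that bind CDKs or their complexes with cyclins and so restrain the cell cycle. The CIP/KIP proteins p21 (CDKN1A), p27 (CDKN1B) and p57 (CDKN1C) bind complexes of CDK2 with cyclins E and A and also complexes of cyclin D. The INK4 proteins p16 (CDKN2A), p15 (CDKN2B), p18 (CDKN2C) and p19 (CDKN2D) bind CDK4 and CDK6, and an alternative first exon of CDKN2A codes for ARF, which inhibits the ubiquitin ligase MDM2.

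The sequence before the start of CDKN1A is shown because it is the member that changed, and that of CDKN1B for comparison with a member of the same family that did not pass the test. Both are the 250 bases upstream of the RefSeq start, on the plus strand of GRCh38.p14, at chr6:36678464-36678713 for CDKN1A and chr12:12717118-12717367 for CDKN1B. Capitals mark the GC box GGGCGG or its reverse complement CCGCCC, the core of the sites known to bind the factor SP1.
CDKN1A: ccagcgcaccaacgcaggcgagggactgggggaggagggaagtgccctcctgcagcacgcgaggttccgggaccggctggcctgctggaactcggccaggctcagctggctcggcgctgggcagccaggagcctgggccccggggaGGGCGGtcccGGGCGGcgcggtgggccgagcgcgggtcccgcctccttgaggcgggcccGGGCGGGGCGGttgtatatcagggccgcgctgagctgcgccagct
CDKN1B: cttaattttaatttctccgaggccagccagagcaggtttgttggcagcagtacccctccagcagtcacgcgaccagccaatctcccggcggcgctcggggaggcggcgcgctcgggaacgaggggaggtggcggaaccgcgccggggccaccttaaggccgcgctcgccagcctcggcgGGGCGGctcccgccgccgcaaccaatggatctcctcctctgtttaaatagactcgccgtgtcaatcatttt
The CDKN1A window held 4 matches, which began 104, 94, 45 and 40 bases upstream of the start, the last pair overlapping by 1 base. The CDKN1B window held 1 match, 71 bases upstream. A high number of matches was not particular to CDKN1A. One window of CDKN2C, which also did not pass the test, held 5 matches and was 77.2% G and C. The other CDKN2C windows held 0 and 1. Of 35116 promoter windows of this length in the RefSeq table, 42.6% held at least 1 match and 7.63% held 4 or more. The CDKN1A window was 76.4% G and C and the CDKN1B window 64.4%, against a median of 58% over all windows. Neither held the letters TATAAA on either strand, which 3763 of the windows did. These matches describe the letters, and binding was not measured.

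Each value given below is the log2 signal of a probe minus the 75th percentile of its array, so a value of -3 lies 3 doublings below that percentile. A change is the mean of the LOX-PP arrays minus the mean of the control arrays. The median change over the 32647 tested probes was 0.13 (-0.03 under quantile normalization), and each change is given relative to this median, whereas p-values test the difference itself against 0. Unless another test or filter is named, p-values across probes come from limma with Benjamini-Hochberg adjustment over all 32647 tested probes. Under another filter the adjustment runs over the probes which that filter keeps. With 3 arrays per group, their number limits the precision. From 56.9% to 74.8% of an array's gene spots passed the well-above-background flag, none was saturated, and negative control spots had a net signal of 64.4 to 575. LOX-PP array 1 was alone on its slide, and the remaining 5 arrays lay together on another. The single LOX probe, a check of the labels, read -0.09, 0.36 and 0.11 on control arrays 1 to 3 and -0.12, -0.68 and -1.29 on LOX-PP arrays 1 to 3. It was thus not higher where the propeptide was to be induced (change -0.95 ± 0.33, SE, adjusted p = 0.217, limma), and whether it lies within the propeptide cDNA is not known here. Every direction below therefore rests on the labels: a LOX-PP array is one labelled A673/TR/LOX-PP.

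Among the 9 inhibitor probes, 8 (from 6 genes) were well above background on at least 3 arrays and were tested. One of the 8, the CDKN1A probe, had an adjusted p under 0.05 (limma), against 5.66% of all tested probes called in either direction, 3.31% called higher and 2.36% called lower. The same probe was the 1 of 8 whose groups did not overlap, where 29.5% of all tested probes had groups that did not overlap. Relative to the median of all probes, 5 of the 8 changes were above 0 and 3 below, with a median of 0.12. The remaining 7 tested probes had no unadjusted p under 0.05 in limma, where 21.3% of all tested probes had one. The methods' t-test (the test the study's methods name, run on the same values) called none of the 7.

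**Figure D1:**
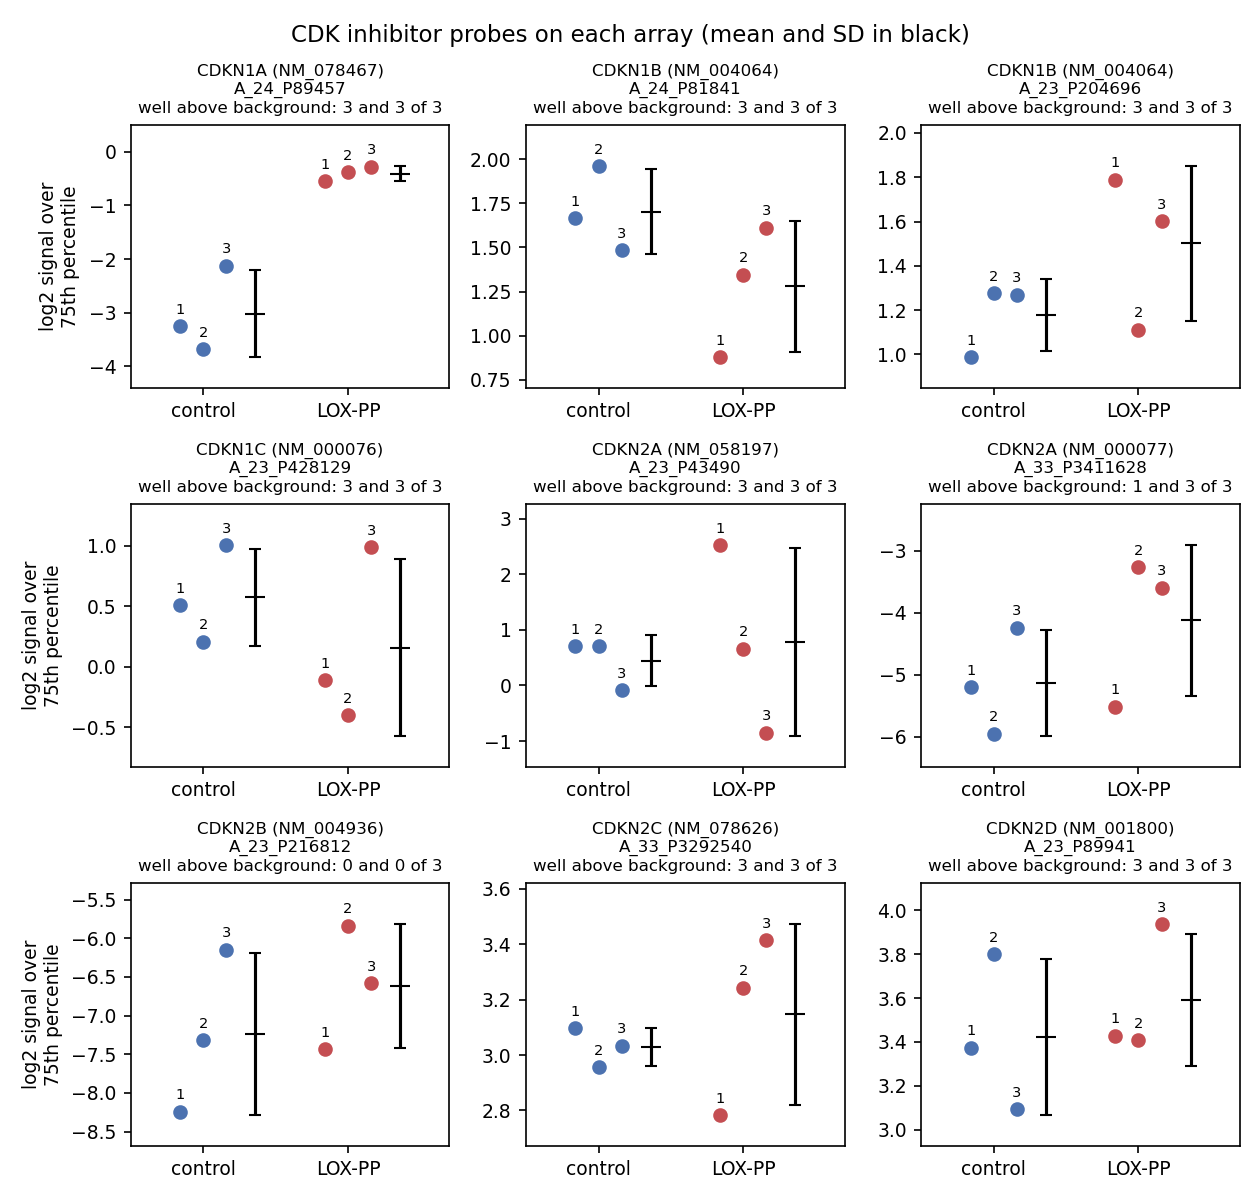
Each panel plots 1 of the 9 CDK inhibitor probes, with the log2 signal over the array's 75th percentile on the vertical axis (a scale of its own in each panel), the 3 control arrays in blue and the 3 LOX-PP arrays in red, numbered by replicate, and the mean with its SD in black. The CDKN1A panel is the one in which the groups are apart, from -3.69 to -2.12 across the control arrays and from -0.55 to -0.28 across the LOX-PP arrays.

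CDKN1A codes for p21, and its probe (A_24_P89457, transcript NM_078467, chromosome 6) was well above background on all 6 arrays. It read -3.26, -3.69 and -2.12 on control arrays 1 to 3 and -0.55, -0.38 and -0.28 on LOX-PP arrays 1 to 3. Every LOX-PP array lay above every control array, and the control arrays were much more spread than the LOX-PP arrays. The group means were -3.02 ± 0.81 (SD, n = 3) for the control arrays and -0.40 ± 0.14 (SD, n = 3) for the LOX-PP arrays. The lowest LOX-PP array was 1.57 above the highest control array, a gap as wide as the range of 1.56 within the control arrays. The difference of the means was 2.62 ± 0.41 (SE), and 2.49 relative to the median of all probes (95% interval 1.53 to 3.45), or 5.62-fold, with an adjusted p of 0.0164 in limma. In RNA from bulk samples, more CDKN1A per cell and a larger share of cells that express it cannot be told apart.

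On the linear scale the background-corrected signal of CDKN1A was 798, 487 and 1425 across the control arrays and 1940, 4805 and 2744 across the LOX-PP arrays. The error that the extraction software assigned to these signals was from 10.0% to 12.0% of the signal on each array. The spread among the control arrays was thus wider than this error. Control array 3, which had the highest CDKN1A value of its group, also had the highest net negative control signal of its group (408, against 169 and 133), whose part in the result was not tested. By size, 319 of the 32647 tested probes had a larger rise than CDKN1A, and 292 of these were among the 1080 probes called higher.

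The direction of CDKN1A was the same under the 16 alternative settings, with changes from 2.10 to 2.88, but its call was not. It was lost without control array 1 (change 2.39, adjusted p = 0.0936 in limma), without control array 2 (2.22, 0.0674), without LOX-PP array 2 (2.56, 0.0561) and without LOX-PP array 3 (2.43, 0.0572), and with no filter on dim probes (2.32, 0.0653). It was also lost under the methods' t-test (adjusted p = 0.0939). Without LOX-PP array 1, which leaves the arrays of slide 1, the change was 2.53 and the adjusted p 0.0345 (limma). The slide block gives the same fit. The methods' t-test, the median of detected probes and the authors' processed values give the change of the main fit, 2.49. With the groups this far apart, leaving out 1 array could not turn the direction.

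**Figure D2:**
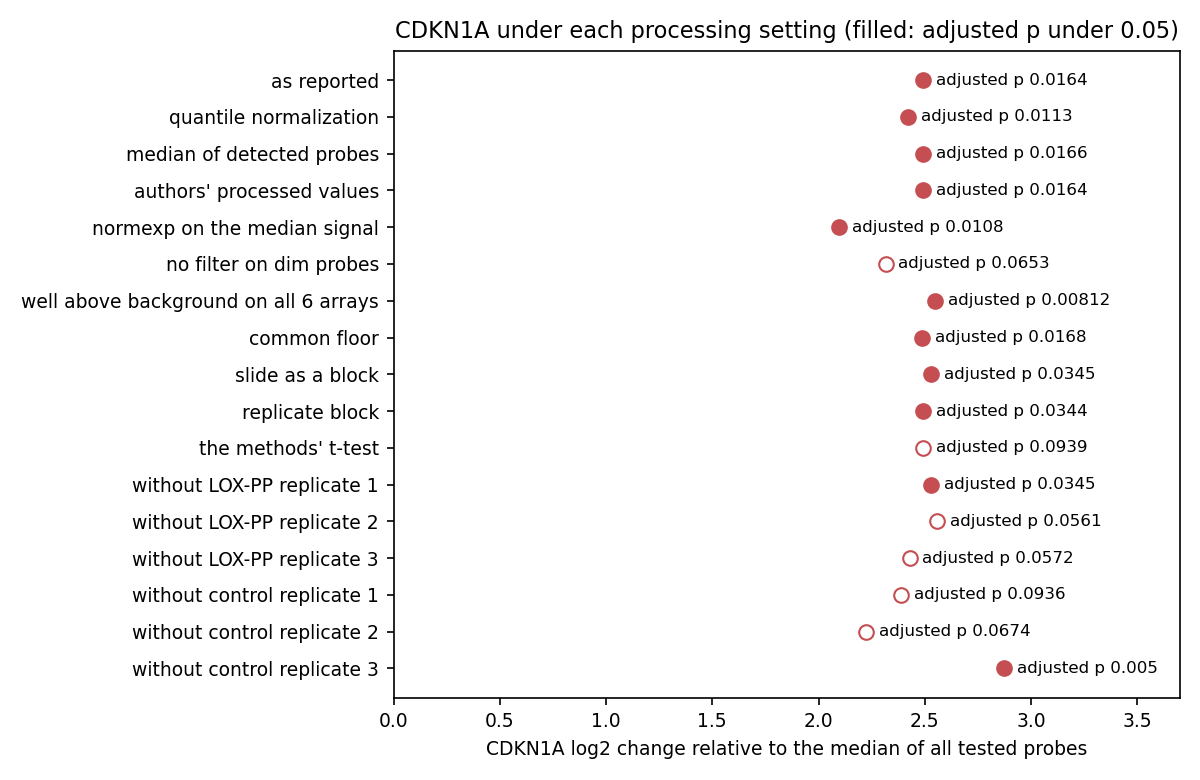
The horizontal axis gives the log2 change of CDKN1A relative to the median of all tested probes under each processing setting named on the vertical axis, with the adjusted p beside each point and filled points where it was under 0.05. The change stayed between 2.10 and 2.88, whereas the adjusted p ran from 0.0050 to 0.0939.

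CDKN1B, which codes for p27, was measured by 2 probes of the same transcript (NM_004064, chromosome 12), both well above background on all arrays. The probe A_24_P81841, spotted 10 times on each array, read 1.66, 1.96 and 1.48 across the control arrays and 0.88, 1.35 and 1.61 across the LOX-PP arrays. Its groups overlapped, and its change was -0.55 ± 0.27 (SE, adjusted p = 0.417, limma). The 10 spots agreed within an SD of 0.032 to 0.060 on each array, far below the SD of 0.24 and 0.37 between arrays of a group. The second probe, A_23_P204696, read 0.99, 1.28 and 1.27 across the control arrays and 1.79, 1.11 and 1.60 across the LOX-PP arrays. Its change was 0.20 ± 0.25 (SE, adjusted p = 0.513, limma), of the opposite sign to the first, and the difference between the probes' changes, -0.75, gave p = 0.2 in an exact two-sided permutation test over the 6 arrays.

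CDKN1C, which codes for p57 and lies in the imprinted domain of 11p15, read 0.51, 0.20 and 1.00 across the control arrays and -0.11, -0.40 and 0.99 across the LOX-PP arrays (A_23_P428129, NM_000076, well above background on all arrays). LOX-PP arrays 1 and 2 lay below every control array, and LOX-PP array 3 lay among them. The change was -0.54 ± 0.41 (SE, 95% interval -1.51 to 0.42, adjusted p = 0.615, limma).

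Of the INK4 genes, CDKN2A on chromosome 9 had 2 probes that name different transcripts of the locus. The probe for NM_058197 (A_23_P43490) was well above background on all arrays and read 0.71, 0.71 and -0.08 across the control arrays and 2.53, 0.66 and -0.85 across the LOX-PP arrays. The LOX-PP arrays thus held both the highest and the lowest value of the 6. Its change was 0.21 ± 0.79 (SE, adjusted p = 0.847, limma) and turned to -0.70 without LOX-PP array 1. The probe for NM_000077 (A_33_P3411628) was well above background on 1 of 3 control and 3 of 3 LOX-PP arrays. It read -5.20, -5.95 and -4.25 across the control arrays and -5.51, -3.27 and -3.59 across the LOX-PP arrays. It thus entered the test through the group in which it read higher, against control values mostly not above background, and did not pass (adjusted p = 0.442, limma).

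CDKN2B, which codes for p15 and is a neighbour of CDKN2A at 9p21, was not well above background on any of the 6 arrays. Its probe (A_23_P216812, NM_004936) read from -8.24 to -6.15 across the control arrays and from -7.43 to -5.83 across the LOX-PP arrays, and no fold is given for it. CDKN2C, which codes for p18 on chromosome 1, read 3.10, 2.96 and 3.03 across the control arrays and 2.78, 3.24 and 3.41 across the LOX-PP arrays (A_33_P3292540, NM_078626). Its change was -0.01 ± 0.24 (SE, 95% interval -0.57 to 0.55, adjusted p = 0.820, limma), with a sign that depended on the scaling (0.26 under quantile normalization). CDKN2D, which codes for p19 on chromosome 19, read 3.37, 3.80 and 3.09 across the control arrays and 3.43, 3.41 and 3.94 across the LOX-PP arrays (A_23_P89941, NM_001800). Its change was 0.04 ± 0.28 (SE, 95% interval -0.62 to 0.71, adjusted p = 0.775, limma) and turned to -0.06 with normexp background correction. These intervals do not show that the genes were unchanged.

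**Figure D3:**
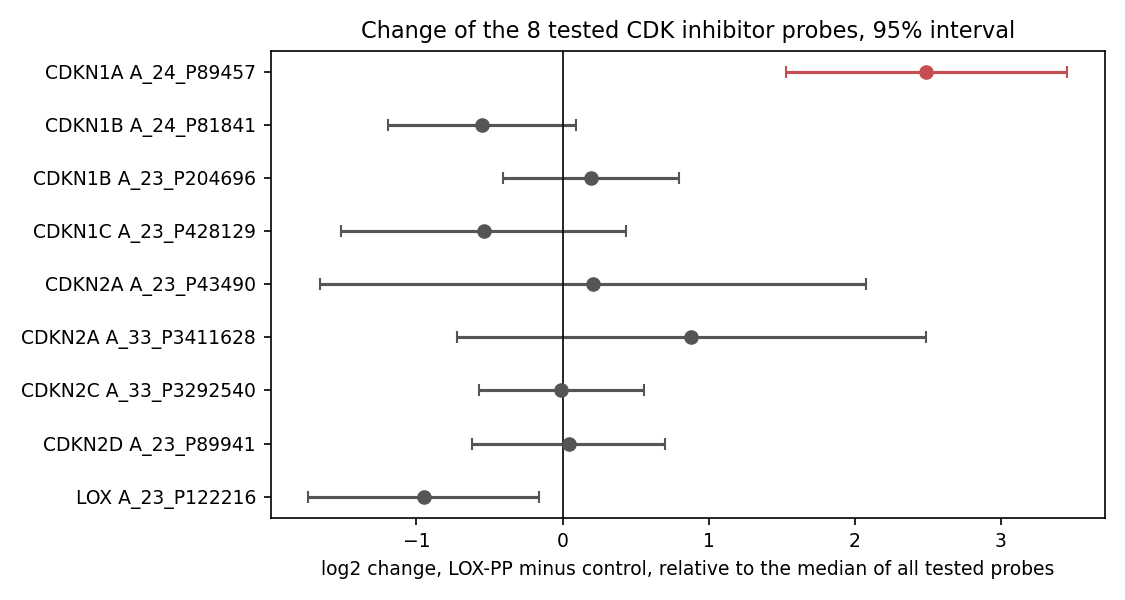
The horizontal axis gives the log2 change (LOX-PP minus control arrays, relative to the median of all tested probes) of the 8 tested inhibitor probes, with 95% intervals from limma and n = 3 arrays per group. The CDKN1A interval, 1.53 to 3.45, lies above 0, and those of the other 7 probes include 0.

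Whether CDKN1A changed more than its family members was tested within arrays, as the difference between its value and that of the brightest probe of each other tested member. The rise of CDKN1A exceeded the change of CDKN1B by 3.04, of CDKN1C by 3.03, of CDKN2A by 2.28, of CDKN2C by 2.50 and of CDKN2D by 2.45. The sizes depend on the probe, and the second probes of CDKN1B (change 0.20) and CDKN2A (0.88), both above the first, were not compared. For CDKN1B, CDKN1C, CDKN2C and CDKN2D the groups did not overlap and the exact two-sided permutation p was 0.1, the smallest that 3 against 3 arrays allow (0.125 after Benjamini-Hochberg adjustment over the 5 pairs). For CDKN2A the groups overlapped (exact permutation p = 0.2). The design therefore cannot reach 0.05 in this test.

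The surroundings of the members in the genome were read from the gene order of the RefSeq table. Of the 10 genes on the array nearest to CDKN1A (5 on each side), 8 were tested and limma called none (0 with an unadjusted p under 0.05, 0 by the methods' t-test). Their changes ran from -0.39 to 0.47 with a median of 0.11, against -0.08 over the 902 tested genes of chromosome 6. Of the 9 tested neighbours of CDKN1B, 1 was called, the next gene APOLD1 (change -1.82, adjusted p = 0.0282, limma). In that set 4 had an unadjusted p under 0.05 and 0 passed the methods' t-test. Of the 10 of CDKN2D, 1 was called, the next gene AP1M2 (change -2.53, adjusted p = 0.0192, limma), with 4 at an unadjusted p under 0.05 and 1 by the methods' t-test. Both genes were named after their values were seen. Limma called 7.07% of all named genes tested, and 21.3% of all tested probes had an unadjusted p under 0.05. The 9 tested neighbours of CDKN1C had a median change of -0.54, close to that of CDKN1C itself, with none called by limma (4 with an unadjusted p under 0.05, 0 by the methods' t-test), against -0.27 over the tested genes of chromosome 11.

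At 9p21, where CDKN2A and CDKN2B lie, 5 of 9 listed genes with a probe were tested. Over all named genes tested, limma called 7.07%. MTAP, which codes for a purine salvage enzyme and is a coding neighbour of CDKN2A, was well above background on all arrays with a change of -0.20 (adjusted p = 0.887, limma). The antisense transcript gene CDKN2B-AS1, like CDKN2B, was not well above background on any of the 6 arrays. One gene of the list was called, MLLT3 (change 0.98 ± 0.22, SE, adjusted p = 0.0362, limma), a subunit of a transcription elongation complex, and FOCAD (0.29) and DMRTA1 (-0.47) were not. The MLLT3 change stayed between 0.85 and 1.10 when each array was left out, but the call was mostly lost. Its adjusted p was 0.0940 without LOX-PP array 2, 0.0550 without LOX-PP array 3, and 0.156, 0.174 and 0.0956 without control arrays 1, 2 and 3 (limma). The call was also lost with no filter on dim probes (0.135), with the replicate block (0.0976, limma) and under the methods' t-test (0.0636). The second MLLT3 probe had a change of -0.08.

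In the 11p15 domain that holds CDKN1C, 12 of 13 listed genes were tested, 9 of them with a change below 0 and a median of -0.43. Over all named genes tested, 56.5% had a change below 0 and limma called 7.07%. Of the 12 listed genes the following holds. One was called, OSBPL5, which codes for a lipid transfer protein (change -1.54 ± 0.24, SE, adjusted p = 0.0232, limma). It read 2.70, 2.83 and 2.49 across the control arrays and 1.02, 1.15 and 1.61 across the LOX-PP arrays, while its second probe had a change of -0.01. The call was lost without control arrays 1 and 2 and LOX-PP array 2 (adjusted p = 0.137, 0.126 and 0.0720, limma). It was also lost with no filter on dim probes (0.0963), with the replicate block (0.0811, limma) and under the methods' t-test (0.0693). PHLDA2 (-1.22, adjusted p = 0.0557) and CARS1 (-1.23, adjusted p = 0.168) did not pass the limma test.

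A list of cell cycle genes, 16 of them tested, holds the cyclins and CDKs that the inhibitors bind. It also holds CDK1, CCNB1, CCNB2, CDK7, CCNH, MNAT1 and the phosphatase gene CDC25A. Of the 16 genes limma called 1 higher and 1 lower. Of all 16601 named genes tested, 3.7% were called higher and 3.37% lower (1 probe per gene, the brightest). CCND2, which codes for cyclin D2, read -5.23, -6.26 and -5.82 across the control arrays and -2.45, -1.50 and -2.27 across the LOX-PP arrays. Its probe was well above background on 1 of 3 control arrays and on all LOX-PP arrays, so that it entered the test through the group in which it was higher, and its other 2 control values were not well above background. Against these values the change was 3.57 ± 0.37 (SE, adjusted p = 0.00356, limma), a size that depends on the treatment of the background, with 2.60 above a common floor (adjusted p = 0.00417) and 1.98 with normexp (adjusted p = 0.0167). Under the methods' t-test its adjusted p was 0.0505. CDK6, the cyclin D partner that the INK4 proteins bind, read 1.62, 2.38 and 0.99 across the control arrays and 0.22, -0.50 and -0.24 across the LOX-PP arrays. Its change was -1.96 ± 0.39 (SE, adjusted p = 0.0447, limma), a call that was lost without any 1 of the arrays but control array 3 (adjusted p from 0.0501 to 0.177 for the other 5). The CDK6 call was also lost with no filter on dim probes (0.139), with the replicate block (0.0959, limma) and under the methods' t-test (0.146).

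CCNB1, which codes for cyclin B1 and is named here after its values were seen, had 2 probes. Its brightest probe had a change of 0.02 (adjusted p = 0.738, limma), and the other read 3.80, 4.09 and 3.89 across the control arrays and 2.30, 2.95 and 2.76 across the LOX-PP arrays, with a change of -1.38 ± 0.25 (SE, adjusted p = 0.0353, limma). The call of that probe was lost without LOX-PP array 2 (0.0577) or 3 (0.0772) and without control array 1 (0.153), 2 (0.169) or 3 (0.0870). It was also lost with no filter on dim probes (0.127), with the replicate block (0.0750, limma) and under the methods' t-test (0.0854).

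The other kinases and cyclins that members bind did not pass the test at their brightest probe. CDK4 had a change of -0.16 and CDK2 of -0.33, and the sign for CDK4 turned without LOX-PP array 2. Cyclins D1 (CCND1, 0.54) and D3 (CCND3, 0.64) were above 0, and so was cyclin E1 (CCNE1, 0.23). Cyclins E2 (CCNE2, -0.72) and A2 (CCNA2, -0.90) were below 0. The median over all 16 tested genes of the list was -0.13, beside -0.09 over all named genes tested.

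Downstream of the kinases lie the pocket proteins, which CDKs phosphorylate, and the E2F factors they hold. None of the 17 genes of this list was called by limma (6 had an unadjusted p under 0.05, 0 passed the methods' t-test). Across all tested probes, 21.3% had an unadjusted p under 0.05 in limma. Of them 13 had a change below 0, where 56.5% of all named genes tested did, and the median was -0.38. RB1 had a change of -0.53 (adjusted p = 0.429), RBL1 of 0.38 and RBL2 of 0.37 in limma, and the list's lowest values were those of E2F5 (-1.29, adjusted p = 0.0602), E2F8 (-1.16) and TFDP1 (-1.11, adjusted p = 0.0568). RB1 and TFDP1 lie on chromosome 13, as do FOXO1 (-0.61) and CUL4A (-1.18) of the lists below. The 285 tested genes of chromosome 13 had a median change of -0.82, whose part in these values was not tested.

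Target genes that E2F factors are known to activate and RB to repress, such as replication and nucleotide synthesis genes, gave 0 calls of 28 tested in limma (1 unadjusted p under 0.05, 0 by the methods' t-test). The share of all tested probes with an unadjusted p under 0.05 in limma was 21.3%. Of them 21 had a change below 0, where 56.5% of all named genes tested did, and the median was -0.39. CCNA2 (-0.90), RRM2 (-0.74), a subunit of ribonucleotide reductase, and CCNE2 (-0.72) had the lowest values. RRM2 read 3.81, 3.63 and 3.45 across the control arrays and 3.05, 3.00 and 3.00 across the LOX-PP arrays, with an adjusted p of 0.148 in limma.

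Genes that control the transcription of the inhibitors gave 2 calls, both higher, of 24 tested. Of all named genes tested, 3.7% were called higher and 3.37% lower. FOXO4, a forkhead factor, read -2.69, -3.03 and -2.65 across the control arrays and -1.07, -1.26 and -1.15 across the LOX-PP arrays. Its change was 1.50 ± 0.22 (SE, adjusted p = 0.00907, limma). The FOXO4 call was lost without control array 1 (0.0678), without control array 2 (0.0594) and with no filter on dim probes (0.0514). TP63, a transcription factor of basal epithelium, had a change of 1.84 ± 0.39 (SE, adjusted p = 0.0362, limma), but its probe was well above background on 2 of 3 arrays in each group. The TP63 call was lost without LOX-PP array 3 (0.0864) and without control arrays 1, 2 and 3 (0.164, 0.124 and 0.0925), and under quantile normalization (0.272). It was also lost with no filter on dim probes (0.119), a common floor (0.0985) and the replicate block (0.0870, limma), and under the methods' t-test (0.129). SMAD2, a transducer of TGF-beta signals, had a change of -1.18 (adjusted p = 0.0792, limma).

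Of the 16 tested genes for the turnover of the p21, p27 and p57 proteins limma called none (1 with an unadjusted p under 0.05, 0 by the methods' t-test). An unadjusted p under 0.05 in limma was found for 21.3% of all tested probes. MDM2, a ubiquitin ligase, had a change of -0.32 (adjusted p = 0.737) at its brightest probe, and its other probes ranged from 0.39 to 0.53. SKP2, the subunit that recognises p27 for degradation, had a change of -0.85 (adjusted p = 0.338), and the cullins CUL4A (-1.18, adjusted p = 0.0517) and CUL1 (-0.55) were also below 0. The 9 genes named for binding a member or its CDK, CDKN1B among them, were all below 0, where 56.5% of all named genes tested were. Limma called none of the 9 (2 with an unadjusted p under 0.05, 0 by the methods' t-test). The lowest were CABLES1 (-1.50, adjusted p = 0.0982) and CDK2AP1 (-0.84, adjusted p = 0.0970). Over these pathway lists, without the inhibitors themselves, 6 of 121 tested genes (4.96%) were called, beside 7.07% of all named genes tested.

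**Figure D4:**
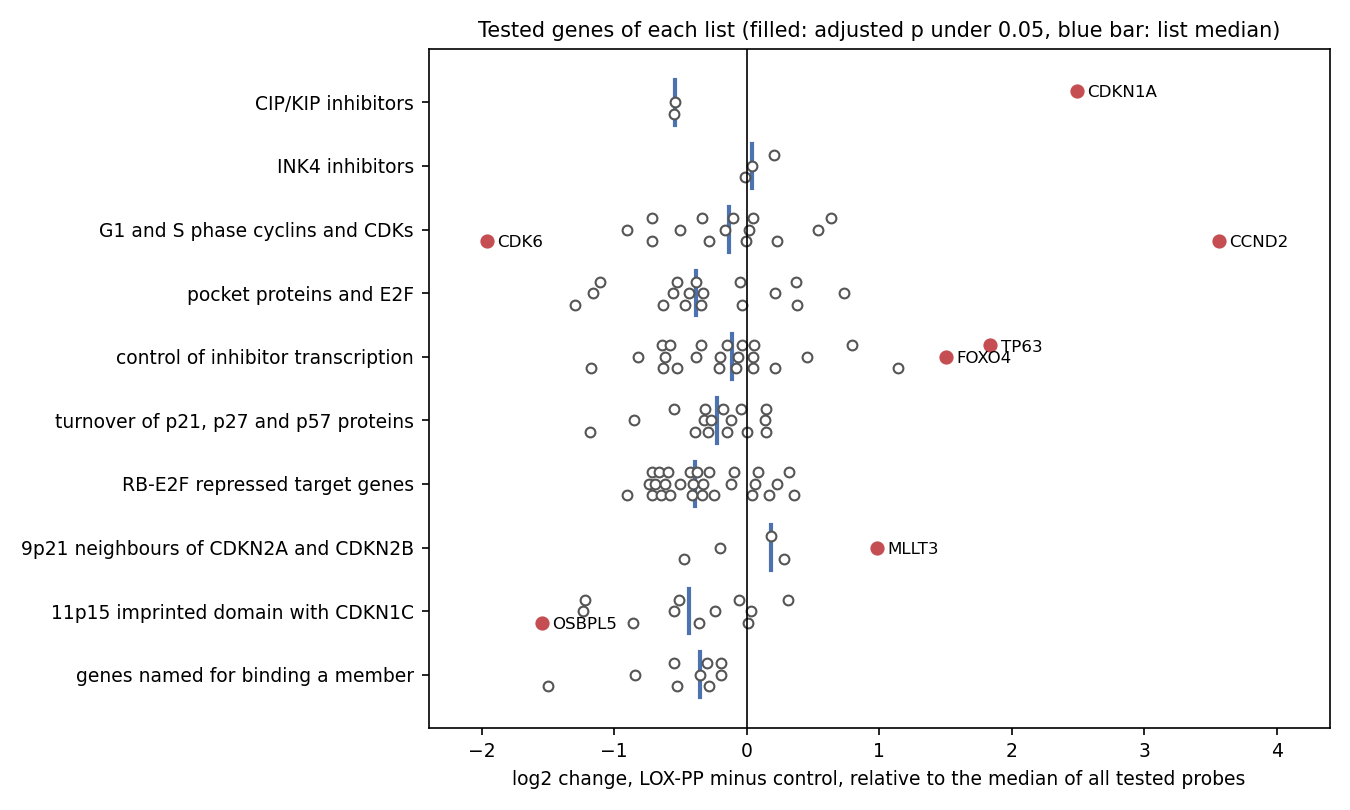
The horizontal axis gives the log2 change (LOX-PP minus control arrays, relative to the median of all tested probes) of each tested gene of the lists on the vertical axis, with 1 probe per gene, filled red points for an adjusted p under 0.05 in limma and a blue bar at each list's median. The called genes are CDKN1A at 2.49, CCND2, FOXO4, TP63 and MLLT3 to the right of 0 and CDK6 at -1.96 and OSBPL5 at -1.54 to the left, and the CCND2 point is set against control values mostly not above background.

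The genes whose pattern over the 6 arrays was most like that of CDKN1A were found by the root mean square distance in log2 between values centred on each probe's own mean, among 22213 probes of other named genes. They were PLA2G4C, a phospholipase (distance 0.18), ZNF385D, a zinc finger gene (0.20), TNFRSF25, a death receptor (0.21), SHANK2, a scaffold protein of synapses (0.22), and CD79B, a chain of the B cell receptor complex (0.23). PLA2G4C read -3.39, -3.35 and -1.79 across the control arrays and -0.28, 0.03 and -0.10 across the LOX-PP arrays, with control array 3 above its group as for CDKN1A. ZNF385D was well above background on 1 of 3 control arrays, and the SHANK2 probe on none of them. TNFRSF25 read -3.70, -3.78 and -2.88 across the control arrays and -0.82, -0.77 and -0.51 across the LOX-PP arrays.

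The identity of the cells was checked with marker genes. For comparison, limma called 7.07% of all named genes tested, and 21.3% of all tested probes had an unadjusted p under 0.05. The 6 Ewing sarcoma markers (CD99, NR0B1, NKX2-2, STEAP1, PRKCB and BCL11B) were well above background on all 6 arrays and limma called none (1 with an unadjusted p under 0.05, NKX2-2 with a change of 0.86 and an adjusted p of 0.0782, 0 by the methods' t-test). None of 4 leukocyte and 3 endothelial markers was called by limma (0 and 2 with an unadjusted p under 0.05, 0 by the methods' t-test). Of 4 epithelial markers, CDH1 and KRT5 were not well above background on any array, EPCAM did not pass (0.49, adjusted p = 0.263, limma), and KRT14, a keratin of basal epithelium, was 5.13 ± 0.21 (SE) higher with an adjusted p of 1.42e-04. This probe read from -3.16 to -3.02 across the control arrays and from 1.95 to 2.32 across the LOX-PP arrays. Another KRT14 probe had a change of 2.07 (adjusted p = 0.0527, limma). It was well above background on 1 of 3 control and 3 of 3 LOX-PP arrays. The remaining KRT14 probe, well above background on 1 of 3 arrays in each group, was not tested. Of 5 fibroblast markers, 3 had an unadjusted p under 0.05 and 1 was called by limma. COL1A1 had a change of 0.53 (adjusted p = 0.175), COL3A1 of -1.49 (0.0793), DCN of -0.80 (0.542) and PDGFRB of -0.53 (0.452). LUM was lower (-2.42, adjusted p = 0.0191, limma) from a probe well above background on 2 of 3 control and 1 of 3 LOX-PP arrays, and its call was lost without LOX-PP array 2 (0.0628) or 3 (0.0521) and without control array 1 (0.0885) or 2 (0.101). It was also lost with no filter on dim probes (0.0748), a common floor (0.0525), quantile normalization (0.0663) and the replicate block (0.0543, limma). Under the methods' t-test the adjusted p of LUM was 0.0963. KRT14 and LUM thus differed between the same groups as CDKN1A, and their part in its result was not tested.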

How the data were processed

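The authors deposited, per the file headers, the scanner output of Agilent Feature Extraction 10.7, with the intensity of each spot corrected for background and flags for outlier, saturated and well-above-background spots, and a table of processed log2 values. The latter equal the log2 corrected intensity minus the 75th percentile of the array, centred on each probe, within 0.02 for all but 62 of 50599 probes (outlier spots were left out here). No aligner or build applies to the spot intensity, and the array design's build is not given in the sources used here.

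From the deposited intensity, a probe's log2 value is the mean of its spots without control and outlier spots, less the array's 75th percentile. No pseudocount was used. Probes with a spot well above background on at least 3 of 6 arrays were tested with limma 3.58.1 in R 4.3.3 on all 6 arrays, without blocks, the threshold being 0.05 after Benjamini-Hochberg adjustment. A RefSeq table (GRCh38.p14) named 28174 of 50599 probes by transcript accession (55.7%), and served for chromosomes, gene order and promoter sequence, which it held for 6 of the 7 genes. A gene's brightest tested probe stood for it in lists. Named genes are the members, LOX, the binding partners of members, RB1, RBL1, RBL2 and MDM2, of each list the called genes and the 3 with the largest absolute change, and the 5 nearest patterns to CDKN1A. Not every such gene is named, and 1 listed gene and 1 list are not reported here. The members and lists were chosen with earlier results of these data known. The steps were tested on simulated arrays. Alternatives were quantile normalization, the median of detected probes, the processed log2 values of the authors, normexp on the median spot intensity, 2 other filters, a common floor, slide and replicate blocks, the methods' t-test and leaving out each array. Sets of genes were not tested.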

Additional observations from a re-analysis of the deposited data

How the results depend on the processing

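The number of tested probes called, 1849, fell to 516 with no filter on dim probes, 566 with the methods' t-test and 860 with the replicate block, and ran from 407 to 2062 when each array was left out in turn. The number of pathway genes called, 6, fell to 1, 1 and 2 under the same 3 settings, ran from 1 to 7 when each array was left out, and reached 9 with normexp and 8 both with a common floor and for probes well above background on all 6 arrays. Under these last 3 settings TFDP1 (adjusted p from 0.0367 to 0.0446), CUL4A (0.0323 to 0.0409) and PHLDA2 (0.0354 to 0.0460) were called lower, and E2F5 under the last of them (0.0383). The cause was not tested. The change of CDKN1A was 2.32 with no filter and 2.49 with the methods' t-test, neither called, and from 2.22 to 2.88 when each array was left out. The CDKN2A probe for NM_058197 reversed to -0.70 with the slide as a block, which equals leaving out LOX-PP array 1, and ran from -0.70 to 1.02 when each array was left out. CDKN2C reversed to 0.26 under quantile normalization, 0.048 for probes well above background on all 6 arrays and 0.14 with the slide block, and ran from -0.14 to 0.14. CDKN2D reversed to -0.062 with normexp and -0.14 with no filter, and ran from -0.19 to 0.29. CDK4 ran from -0.35 to 0.026, and MTAP reversed to 0.069 under quantile normalization. CDKN1B, CDKN1C and the other CDKN2A probe kept their direction and stayed uncalled under every alternative that could be fitted. The labels do not say whether equal replicate numbers mark the same experiment, and the main fit did not pair the samples. The deviations of same-numbered arrays correlated at 0.27, -0.39 and 0.23, and 1 of 3 numbers was its own best match. With 3 arrays per group these values cannot settle whether the samples are paired. With the replicate block CDKN1A had a change of 2.49 and an adjusted p of 0.0344 (limma). With 1 array left out of a group, the remaining arrays share 1 estimate of the spread. No depth applies to intensities, and probes near background, such as CDKN2B, give only a bound.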
